A study of Mus musculus with 16 samples.

Results

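Ephrin-A ligands and EphA receptors were followed in the mouse cloaca and in the hindgut and urethra that derive from it. The 10 genes were taken by symbol from the deposited tables: the ligand genes Efna1, Efna2, Efna3, Efna4 and Efna5 and the receptor genes Epha1, Epha2, Epha4, Epha5 and Epha7. Each matched 1 of the 23234 features. The study aimed at an expression atlas of the genital tubercle and the urethra. Tissue was cut by laser from cresyl violet-stained frozen sections of wild-type male CD1 embryos, an outbred stock. The groups are dorsal cloaca and ventral cloaca at 10.5 days post coitum (E10.5), and rectal and hindgut epithelium and pelvic urethral epithelium at E13.5, called hindgut and urethra below. No group carries an engineered allele or received an agent. Each group has 4 libraries from 4 embryos, none pooled per the labels, and each embryo gave a dorsal and a ventral piece.

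The deposited tables give a single FPKM value (fragments mapped to a gene, scaled by its transcript length and by the size of the library) for each gene, region and age. No value per embryo was analysed here, so no standard deviation, standard error or p-value can be given, and the differences below were not checked against replicates. Differences are ventral minus dorsal on the log2(FPKM + 1) scale. This scale understates the change of low genes. In such bulk pieces, fewer cells of a type and less RNA per cell cannot be told apart. A size of at least 1 was called higher in the region concerned, which is a rule of size and not of significance. Features were kept at an age when they had at least 1 FPKM in either region, so a gene can be kept through its higher region alone.

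Eph receptors are receptor tyrosine kinases of the cell surface, and ephrins are their ligands, which stay attached to the cell that makes them. Ephrin-A ligands are held by a glycosylphosphatidylinositol (GPI) anchor and bind mainly EphA receptors, with signals into the receptor cell (forward) and into the ligand cell (reverse). Contact between ligand and receptor cells often leads to repulsion, which sorts cells at tissue boundaries and guides axons. Loss of Epha1 in mice has been described to give a kinked tail and an imperforate vagina. Partners of the ephrin-B class are needed in mice for midline closure of the urethra and the anorectal region.

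At E13.5 the markers of the labelled tissues summed higher in the labelled regions. The 6 hindgut markers summed to 87.1 FPKM in hindgut and 1.505 FPKM in urethra at E13.5, although Cdx2, a hindgut regulator, was listed at 0 in hindgut. The sum of the 6 urethral markers was 127 FPKM in hindgut against 655 in urethra at E13.5, and it came to 158 in ventral and 13.3 in dorsal cloaca at E10.5. In hindgut most of this sum came from Trp63 and Krt5, so it exceeded that of the hindgut markers there. Trp63 stood at 75.6 FPKM in hindgut and 151 in urethra (0.98), short of a size of 1, and Krt5 at 42.7 and 286 FPKM (2.71). The hindgut markers summed to 20.8 FPKM in dorsal and 6.79 in ventral cloaca. Of the 4 kept at E10.5, 2 were higher dorsally and 1 ventrally, against 9.62% and 10.6% of all kept features. That 1 was Vil1, at 1.83 and 5.99 FPKM (1.30), whose span is shared with other features. All 11 general epithelial markers had at least 1 FPKM in all 4 groups. Their sum was 1944 FPKM in dorsal and 1848 in ventral cloaca, and 3234 in hindgut and 1795 in urethra. At E13.5, 9 of the 11 had the lower value in urethra, with a median log2 difference of -0.60, and Krt19 (846 and 293 FPKM) and Cldn7 (342 and 144 FPKM) passed a size of 1 toward hindgut. The part of this difference in the EphA and ephrin-A values was not tested.

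Among the ligands, Efna4 had the highest FPKM in all 4 groups and Efna3 the lowest. Efna4, which acts with Epha4 at the coronal suture of the mouse skull, stood at 64.4 FPKM in dorsal cloaca, 140.0 in ventral cloaca, 32.3 in hindgut and 41.3 in urethra. These levels lay above those of 95.8%, 98.2%, 90.1% and 92.6% of all features in the same column. Efna3, a lower-expressed ligand of the same class, stood at 1.94 FPKM in dorsal cloaca, 8.23 in ventral cloaca, 1.12 in hindgut and 2.78 in urethra. In both genes the ventral region was the higher one at both ages. Efna1, first known as a product of activated endothelial cells, had 20.4 and 25.8 FPKM in dorsal and ventral cloaca and 24.97 and 27.67 FPKM in hindgut and urethra. Its levels were the most even of the ligand genes at E13.5. Efna5, a guidance cue of axons in the mouse visual system, stood at 27.2 and 26.5 FPKM at E10.5 and at 10.8 and 12.9 FPKM at E13.5. Efna2, another guidance ligand of the developing brain, had 11.1 and 12.1 FPKM at E10.5 and 5.45 and 8.15 FPKM at E13.5. The order from Efna4 down was Efna5, Efna1, Efna2 and Efna3 in both cloacal regions, and Efna1 stood ahead of Efna5 in hindgut and urethra. Without a spread between embryos it cannot be said which neighbours in this order differ.

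At E10.5, Efna3 and Efna4 were the ligands past the size rule, both higher in ventral cloaca. The log2 difference was 1.65 for Efna3, a ratio of 4.25 between the FPKM values, and 1.11 for Efna4, a ratio of 2.17. Efna1 had a log2 difference of 0.32, Efna2 of 0.11 and Efna5 of -0.04, the last the sole ligand with a lower ventral value. So 2 of 5 ligands were higher ventrally and 0 dorsally, where 10.6% and 9.62% of the 12379 kept features were. With 5 genes these counts are not set apart from the shares. The median log2 difference of the ligands was 0.32, against 0.04 for all kept features. When 5 was added before the logarithm and not 1, Efna3 had a difference of 0.93, short of the rule, and Efna4 one of 1.06.

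At E13.5 none of the 5 ligands passed the size rule, and all 5 had the higher FPKM in urethra, as did 51.7% of all kept features. Efna3 came closest, with a log2 difference of 0.83, which was 1.24 with a pseudocount of 0.1. The others had log2 differences of 0.50 for Efna2, 0.34 for Efna4, 0.23 for Efna5 and 0.14 for Efna1. The median was 0.34, against 0.01 for all 12369 kept features, of which 4.16% were higher in urethra and 4.59% in hindgut. Counts over these 5 genes were not tested.

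**Figure D1:**
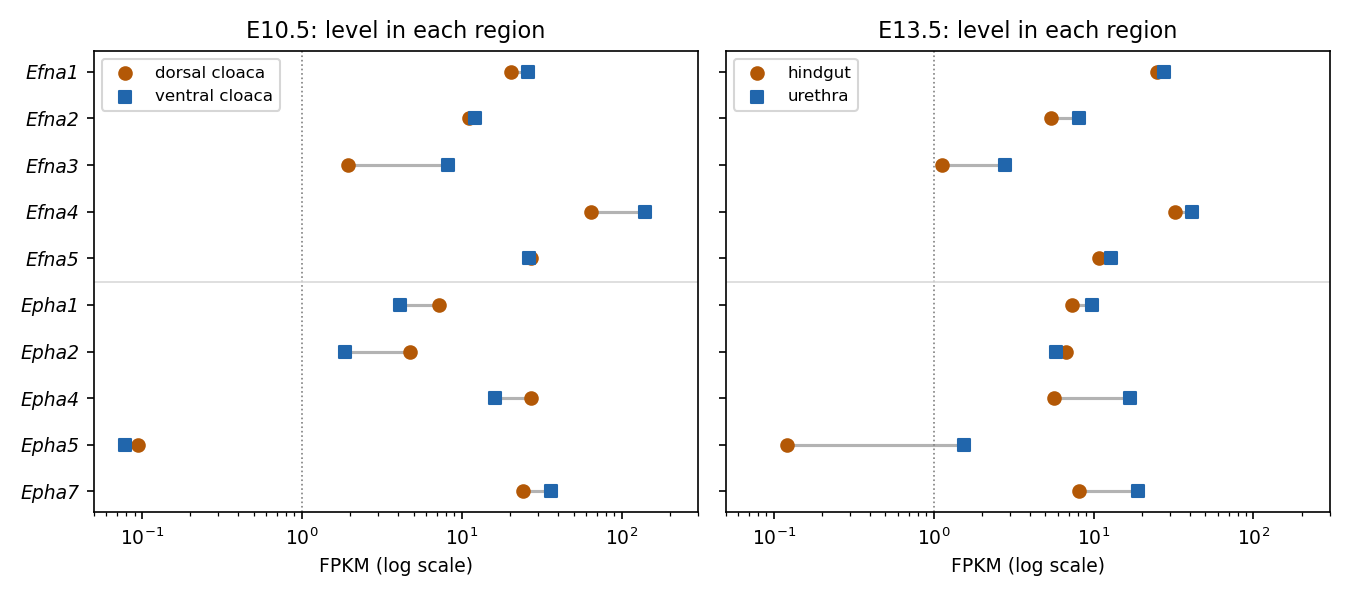
FPKM of the 10 genes on a log axis in dorsal (circles) and ventral (squares) regions at E10.5 and E13.5, with 1 deposited value per point and a dotted line at 1 FPKM. Efna4 lies furthest right in all 4 groups, and Epha5 passes 1 FPKM only in urethra, at 1.55.

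Efna1, Efna3 and Efna4 lie next to each other on the minus strand of chromosome 3, within 66.3 kb (mm10, 89271730 to 89338028). On either side of the cluster are Slc50a1, a sugar transporter gene next to Efna1, and Adam15, a metalloprotease gene next to Efna4. Slc50a1 stood at 9.24 FPKM in dorsal and 1.05 in ventral cloaca, a log2 difference of -2.32, and Adam15 at 5.16 and 2.48, a difference of -0.83. Both neighbours thus had their lower value in ventral cloaca, where all 3 ligand genes had their higher one. At E13.5 the differences were -0.27 for Slc50a1 and -0.40 for Adam15. Exons of Efna3 share 344 bases, and exons of Efna4 168 bases, with antisense genes of GENCODE M21 (Gm15998 and 4731419I09Rik) that the tables do not list by these names. Whether the counting used strand is not stated in any source used here, so reads of such partners cannot be told apart.

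The promoters of the 2 ligand genes past the size rule are shown because both were higher in ventral cloaca and lie side by side. They are the 250 bases before the RefSeq start nearest to the 5′ end of the deposited locus (GRCm38.p6, the assembly of mm10), at chr3:89322940-89323189 and chr3:89338029-89338278, both minus strand and printed 5′ to 3′. Capitals mark a GC box (GGGCGG) or a CCAAT box (CCAAT) in either orientation, the first known to be bound by Sp-type factors and the second by NF-Y.
Efna3: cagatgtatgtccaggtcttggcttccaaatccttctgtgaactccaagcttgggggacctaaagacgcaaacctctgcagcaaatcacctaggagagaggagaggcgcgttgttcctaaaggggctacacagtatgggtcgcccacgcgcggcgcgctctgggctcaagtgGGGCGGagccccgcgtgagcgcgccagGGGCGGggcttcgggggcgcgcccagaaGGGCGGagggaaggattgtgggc
Efna4: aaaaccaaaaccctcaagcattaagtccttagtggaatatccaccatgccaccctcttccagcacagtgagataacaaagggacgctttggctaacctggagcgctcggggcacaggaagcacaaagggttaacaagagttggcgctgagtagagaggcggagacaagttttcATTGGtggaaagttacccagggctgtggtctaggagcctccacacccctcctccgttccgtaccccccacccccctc
Efna3 has 3 GC boxes and no CCAAT box, and Efna4 has 1 CCAAT box and no GC box. The start used for Efna3 lies 60 bases from the end of its deposited locus, and that for Efna4 coincides with it. Efna4 is the 1 member of 10 without a GC box in this window.

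Among the receptors, Epha4 and Epha7 led at E10.5, and at E13.5 in the urethra. Epha4, which binds ligands of both ephrin classes and guides motor axons in the limb, stood at 27.1 FPKM in dorsal cloaca, 16.1 in ventral cloaca, 5.66 in hindgut and 16.8 in urethra. Its higher value was dorsal at E10.5 and ventral at E13.5. Epha7, a receptor described as a target of Hoxa13 in vessels of the mouse genital tubercle, stood at 24.1 FPKM in dorsal cloaca, 36.1 in ventral cloaca, 8.16 in hindgut and 19.0 in urethra, higher on the ventral side at both ages. Epha1, the first receptor of the family to be cloned, had 7.20 and 4.10 FPKM in dorsal and ventral cloaca and 7.32 and 9.81 FPKM in hindgut and urethra. Epha2, a receptor of epithelial cells that responds to ephrin-A1, had 4.76 and 1.86 FPKM at E10.5 and 6.68 and 5.84 FPKM at E13.5, lower on the ventral side at both ages. Epha5, known as a receptor of neurons, stood at 0.095 and 0.079 FPKM at E10.5, and at 0.12 FPKM in hindgut and 1.55 in urethra. It was the lowest of the 10 genes in all 4 groups. In hindgut the other 4 receptors lay between 5.66 and 8.16 FPKM, with Epha7 the highest and Epha4 the lowest of them. In urethra the order was Epha7, Epha4, Epha1, Epha2 and Epha5.

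At E10.5, 4 of 5 receptors passed the minimum of 1 FPKM, and 3 of these 4 had the lower value in ventral cloaca. Epha2 was just past the size rule, with a log2 difference of -1.01. It was -0.51 with a pseudocount of 5, and the gene was below a minimum of 5 FPKM. Epha4 had a log2 difference of -0.72, Epha1 of -0.68 and Epha7 of 0.56. Thus 1 of the 4 was higher dorsally and 0 ventrally, where 9.62% and 10.6% of the 12379 kept features were. With 4 genes these counts are not set apart from the shares. The median of the 4 receptors was -0.70, against 0.04 for all kept features, of which 52.4% had the higher value in ventral cloaca. Ligands and receptors together, 3 of the 9 kept genes passed the rule in either direction at E10.5, against 20.2% of all kept features. With 9 genes this count is not set apart from the share either.

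At E13.5 all 5 receptors were kept and 3 of them were higher in urethra. The log2 difference was 1.42 for Epha4, a ratio of 2.97 between the FPKM values, 1.19 for Epha5 and 1.13 for Epha7, a ratio of 2.33. These sizes were larger than those of 95.7%, 93.8% and 93.2% of the kept features. Epha1 had a log2 difference of 0.38 and Epha2 of -0.17. The median of the 5 receptors was 1.13, against 0.01 for all kept features, and none was higher in hindgut. Of all kept features, 4.16% were higher in urethra and 4.59% in hindgut. Of all 10 genes, 3 passed the rule in either direction at E13.5, against 8.76% of all kept features. With so few genes no conclusion is drawn from these counts, which were not tested. With a pseudocount of 5 Epha4 alone stayed past the rule, at 1.03, with Epha7 at 0.87 and Epha5 at 0.36. Epha5 passed the minimum through the urethra alone, and its difference depends on the pseudocount, at 2.90 with 0.1.

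**Figure D2:**
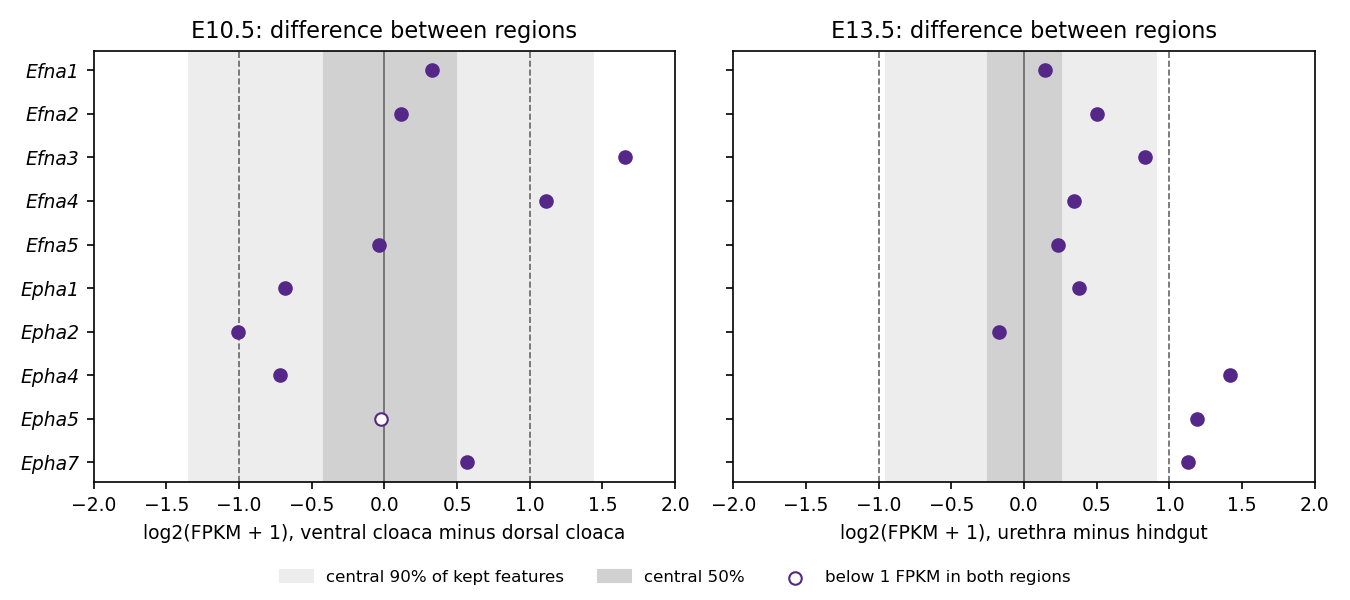
Difference of log2(FPKM + 1), ventral minus dorsal region, for the 10 genes at E10.5 and E13.5, over bands that hold the central 50% and 90% of all kept features, with dashed lines at the size rule and an open circle for Epha5 at E10.5, below 1 FPKM in both regions. Efna3 lies right of the wide band at E10.5, and Epha4, Epha5 and Epha7 at E13.5.

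The 2 ages set side by side show Epha4 on opposite sides. Its log2 difference was 2.14 larger at E13.5 than at E10.5, above that of 98.7% of the 11486 features kept at both ages, whose central 90% lay between -1.41 and 1.34. For Epha1 the same quantity was 1.06, and its higher value also passed from the dorsal to the ventral side. So did that of Efna5, by 0.27, from a log2 difference of -0.04 at E10.5 to 0.23 at E13.5. Epha2 had 0.84 and Epha7 0.56, without a change of side. For Efna3 and Efna4 it was -0.82 and -0.76, the ventral value remaining the higher one at both ages. Efna1 had -0.18 and Efna2 0.39, also without a change of side. Epha5 was not kept at E10.5. No difference between the ages was tested, since no values per embryo were analysed, and the pieces at E10.5 are cloaca while those at E13.5 are labelled as epithelium.

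The promoters of the 4 receptor genes past the size rule at either age are shown for comparison with those of the ligands. They were taken by the same rule: Epha2 at chr4:141300971-141301220 on the plus strand, Epha4 at chr1:77515089-77515338 on the minus strand, Epha5 at chr5:84417383-84417632 on the minus strand and Epha7 at chr4:28812895-28813144 on the plus strand, each start coinciding with the 5′ end of the deposited locus. Capitals mark the same GC and CCAAT boxes as above.
Epha2: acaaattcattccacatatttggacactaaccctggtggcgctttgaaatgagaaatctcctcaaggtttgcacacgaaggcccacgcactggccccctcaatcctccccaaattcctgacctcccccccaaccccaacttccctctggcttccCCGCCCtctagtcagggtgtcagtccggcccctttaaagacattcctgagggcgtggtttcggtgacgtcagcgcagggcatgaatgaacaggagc
Epha4: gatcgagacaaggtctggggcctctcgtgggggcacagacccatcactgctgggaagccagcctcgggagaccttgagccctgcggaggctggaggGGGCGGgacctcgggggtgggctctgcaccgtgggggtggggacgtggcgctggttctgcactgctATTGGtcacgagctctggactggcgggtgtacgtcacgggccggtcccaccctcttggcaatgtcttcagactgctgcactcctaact
Epha5: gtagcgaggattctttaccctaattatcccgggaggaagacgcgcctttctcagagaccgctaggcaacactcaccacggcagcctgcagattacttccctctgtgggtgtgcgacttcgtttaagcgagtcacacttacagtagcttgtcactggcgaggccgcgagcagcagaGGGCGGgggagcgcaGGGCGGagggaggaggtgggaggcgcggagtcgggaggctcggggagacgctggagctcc
Epha7: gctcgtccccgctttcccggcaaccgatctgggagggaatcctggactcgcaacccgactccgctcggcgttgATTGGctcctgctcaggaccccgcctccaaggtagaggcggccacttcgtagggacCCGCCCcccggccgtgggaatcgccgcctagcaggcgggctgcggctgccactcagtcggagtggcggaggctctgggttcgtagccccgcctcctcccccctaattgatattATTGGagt
Of the 3 receptors higher in urethra, Epha4 and Epha7 hold a CCAAT box, 1 and 2 of them, and Epha5 holds none. Epha2, higher in dorsal cloaca, has 1 GC box and no CCAAT box. Over all 10 genes, 9 windows held a GC box and 3 a CCAAT box, the third being Efna4. The starts used for Efna2 and Epha1 lie 482177 and 7290 bases from the 5′ ends of their deposited loci, so these 2 windows are not tied to those ends. Of 32851 RefSeq promoter windows of the same length, 32.7% held a GC box and 33.8% a CCAAT box, searched on both strands. Of the other motifs searched, the TATA box TATAAA, the Tcf/Lef motif CTTTGAT, the posterior Hox motif CAATAAA and the E-box CACGTG, no window of the 10 genes held any. These were in 12.4%, 3.21%, 4.204% and 6.02% of all windows. None of these motifs overlapped another in the windows shown. The share of G and C was 54.4% to 74.8% in the 10 windows, against a median of 52.4% over all windows. A match is a description of letters and not of binding, and the absence of one says nothing about the factor.

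Summed by class, the ephrin-A ligands came to 125 FPKM in dorsal cloaca, 213 in ventral cloaca, 74.7 in hindgut and 92.8 in urethra. The EphA receptors came to 63.3 FPKM in dorsal cloaca, 58.3 in ventral cloaca, 27.9 in hindgut and 53.0 in urethra. At E10.5 the ventral side thus held 1.70 times the ligand total and 0.92 times the receptor total of the dorsal side. At E13.5 the ventral side held 1.24 times the ligand total and 1.90 times the receptor total. The ligand total was 1.98 times the receptor total in dorsal cloaca, 3.65 times in ventral cloaca, 2.67 times in hindgut and 1.75 times in urethra. This ratio was the higher one on the ventral side at E10.5 and on the dorsal side at E13.5. Efna4 alone made up 51.5% of the ligand total in dorsal cloaca, 65.8% in ventral cloaca, 43.3% in hindgut and 44.5% in urethra. Without Efna4, the log2 ratio of the ligand totals at E10.5 was 0.26 instead of 0.77. Epha7 made up 38.1% of the receptor total in dorsal cloaca and 62.0% in ventral cloaca, and Epha4 42.9% and 27.7%. Without Epha7, the log2 ratio of the receptor totals at E10.5 was -0.82 instead of -0.12. In hindgut Epha1, Epha2, Epha4 and Epha7 took 26.2%, 23.9%, 20.3% and 29.2% of the receptor total, and in urethra 18.5%, 11.0%, 31.7% and 35.9%.

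**Figure D3:**
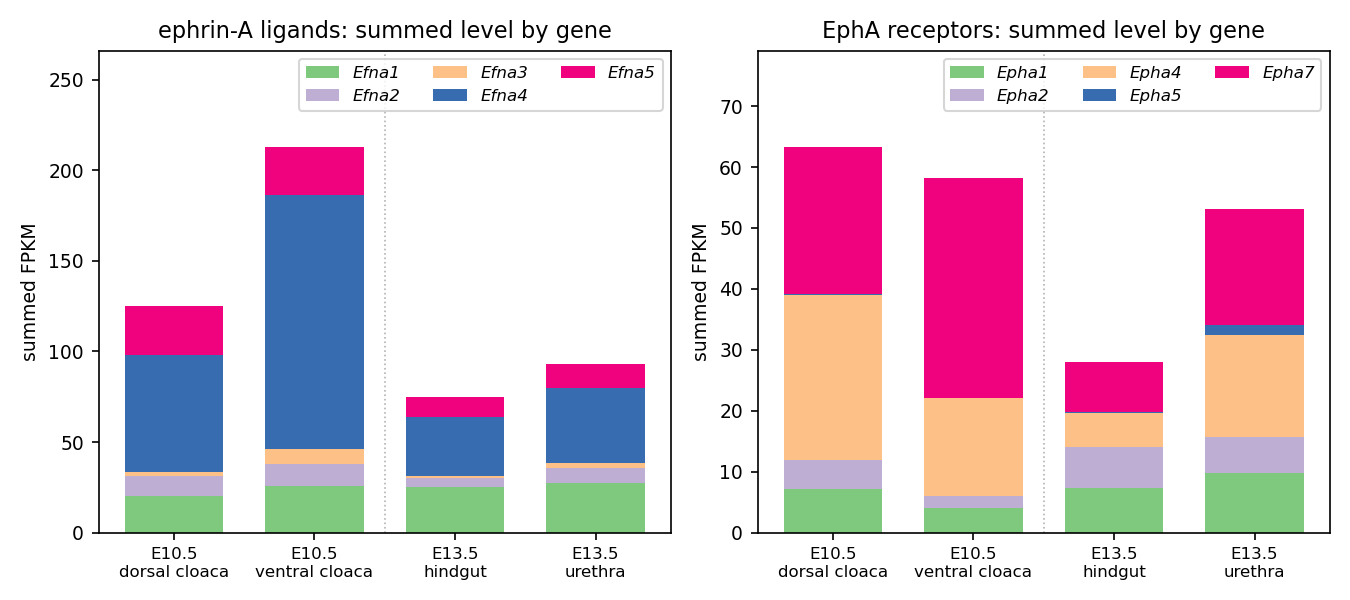
Summed FPKM of the 5 ligand genes (left) and the 5 receptor genes (right) in each group, stacked by gene, with the ages, which come from separate tables, parted by a dotted line. The ligand bar is tallest in ventral cloaca, at 213 FPKM, and the receptor bar of urethra, at 53.0 FPKM, stands above that of hindgut, at 27.9.

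Ephrin-B and EphB genes are given for comparison. Their ligand total was 38.7 FPKM in dorsal and 138 in ventral cloaca, and 26.7 in hindgut and 94.0 in urethra, so it was 3.55 and 3.53 times as high on the ventral side at the 2 ages. Efnb2, a ligand that Epha4 also binds, made up most of it. Efnb2 stood at 22.6 and 124 FPKM at E10.5 (2.41) and at 17.5 and 79.9 FPKM at E13.5 (2.13). Efnb1 had 2.27 FPKM in dorsal and 9.55 in ventral cloaca (1.69). Efnb3 ran the other way, with 13.9 FPKM in dorsal and 4.02 in ventral cloaca (-1.57). All 3 ephrin-B ligands passed the size rule in the cloaca, 2 toward the ventral and 1 toward the dorsal region. In either direction 20.2% of all kept features passed it at E10.5. At E13.5 Efnb2 alone passed it, against 8.76% of all kept features, and all 3 had the higher value in urethra. With 3 genes no conclusion is drawn from these counts. The EphB total was 0.80 and 0.84 times as high on the ventral side, where the EphA total was 0.92 and 1.90 times as high. None of the 4 EphB receptors kept at either age passed the size rule, against 20.2% of all kept features at E10.5 and 8.76% at E13.5. At such a list size these counts are not set apart from the shares. The medians of the EphB receptors were -0.35 at E10.5 and 0.05 at E13.5. The second of these was -0.16 with no minimum and -0.33 with a minimum of 5 FPKM. Of the 4 other EphA receptors, Epha6 passed the rule at both ages, at 0.023 and 1.97 FPKM in dorsal and ventral cloaca and at 0.0046 and 1.44 in hindgut and urethra. Its span is shared with other features, so these values are uncertain. Epha6 was 1 of 1 kept genes of this list at E10.5 and 1 of 2 at E13.5. Such counts are too small to be set apart from the shares. Epha3 was listed at 0 in dorsal cloaca and stood at 0.77 FPKM in ventral cloaca, 0.93 in hindgut and 2.00 in urethra. Epha8 and Epha10 had at most 0.117 FPKM in all 4 groups.

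Genes that carry Eph signals inside the cell were counted by the same rule, which 20.2% of all kept features passed in either direction at E10.5 and 8.76% at E13.5. Of 27 kept genes of 32 at E10.5, 2 passed the rule toward ventral and 1 toward dorsal cloaca, and the median was -0.04. Vav2, a guanine nucleotide exchange factor that acts below Eph receptors, stood at 9.06 FPKM in ventral and 2.83 in dorsal cloaca, a log2 difference of 1.39. Pik3r1, a subunit of phosphoinositide 3-kinase, stood at 40.0 and 16.5 FPKM (1.22), and the kinase gene Src at 6.74 and 14.7 FPKM (-1.02). Of 28 kept at E13.5, 1 was higher in urethra and 1 in hindgut, with a median of 0.04. For Vav3, a relative of Vav2, hindgut had 1.254 FPKM and urethra 3.92 (1.13). Ngef, the exchange factor ephexin that binds EphA4 in neurons, had 7.69 FPKM in hindgut and 3.32 in urethra (-1.01) and was listed at 0 in both regions at E10.5.

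In the list of cleavage and dephosphorylation genes 1 of 8 kept at E10.5 was higher dorsally and 0 ventrally, and none of 7 at E13.5 in either direction, with medians of -0.13 and -0.19. At such list sizes these counts, and those of the GPI anchor list, are not set apart from the shares of all kept features. The 1 gene was Adam12, a metalloprotease gene, at 6.25 FPKM in dorsal and 1.42 in ventral cloaca. Adam10, which sheds ephrin-A ligands, stood at 26.6 and 20.8 FPKM at E10.5 and at 19.6 and 16.6 FPKM at E13.5. In the list of 4 genes headed ephrin-A co-receptors, Ret stood at 7.03 FPKM in dorsal and 2.204 in ventral cloaca (-1.33). Cav1, whose place in this list is uncertain, stood at 0.40 FPKM in hindgut and 2.26 in urethra (1.22). They were the 1 of 2 and the 1 of 1 kept genes past the rule, against 20.2% and 8.76% of all kept features. These counts are too small to be set apart from such shares. In the list for GPI anchor attachment 1 of 9 genes was higher ventrally at E10.5 and none at E13.5, with medians of -0.01 and -0.15. That gene was Pgap3, which remodels the anchor, at 8.41 and 1.76 FPKM.

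**Figure D4:**
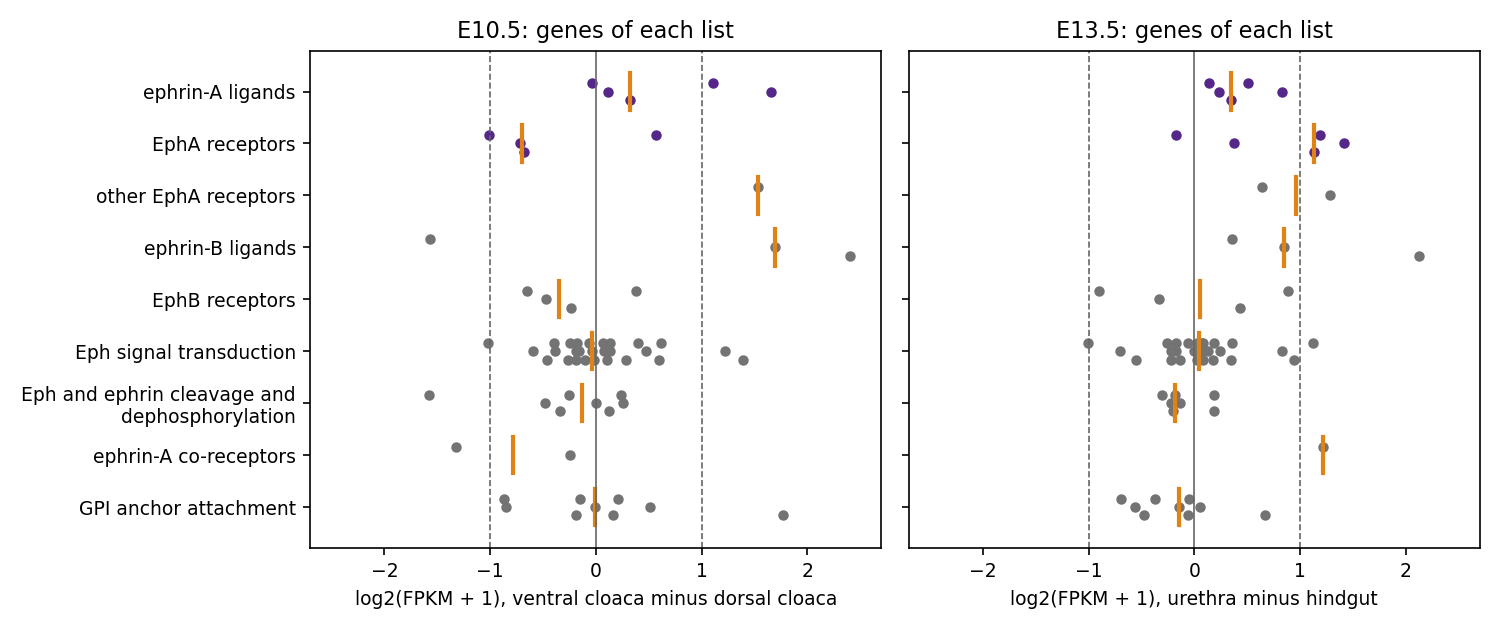
Difference of log2(FPKM + 1), ventral minus dorsal region, for each kept gene (dots) and the median (bars) of 9 lists at E10.5 and E13.5, with dashed lines at the size rule. The bar of the EphA receptors lies at -0.70 at E10.5 and at 1.13 at E13.5, while that of the signal transduction genes lies at -0.04 and 0.04.

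EphA and ephrin-A genes are also known from cells other than epithelium, so markers of such cells were measured in the same groups. Of 10 endothelial markers, 1 had at least 1 FPKM in dorsal cloaca, 3 in ventral cloaca, 1 in hindgut and 2 in urethra, and their sums were 5.63, 19.0, 5.03 and 8.02 FPKM. Kdr, a defining endothelial receptor, was at most 0.20 FPKM, and Cldn5 was listed at 0 in hindgut and urethra. Past the rule toward the ventral side were Esam, at 0.28 and 8.63 FPKM at E10.5, and Erg, listed at 0 in dorsal and at 1.46 FPKM in ventral cloaca and at 0.071 and 3.15 FPKM in hindgut and urethra. Of 10 neuronal markers, 1, 2, 1 and 0 had at least 1 FPKM in the 4 groups in the same order, with sums of 4.52, 9.42, 3.14 and 2.24 FPKM. Prph was listed at 0 in all 4 groups, and Tubb3 at 0 in both cloacal regions. Syt1 stood at 0.20 FPKM in dorsal and 4.21 in ventral cloaca (2.12) and Nefl at 2.62 and 4.97 (0.72), while Nefm stood at 1.44 FPKM in hindgut and 0.22 in urethra (-1.01). Smooth muscle markers, 6 in all, summed to 13.3, 5.49, 2.75 and 4.54 FPKM, with 2, 2, 0 and 2 of them at 1 FPKM or more. Markers of neural crest and glia, 5 in all, summed to 11.7, 9.30, 15.7 and 11.6 FPKM, with Foxd3 at 0 in all 4 groups and 2, 1, 2 and 1 of them at 1 FPKM or more.

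Mesenchymal markers were present in all 4 groups. Of 10, 7 had at least 1 FPKM in each cloacal region, 10 in hindgut and 9 in urethra, and their sums were 122 FPKM in dorsal cloaca, 199 in ventral cloaca, 76.0 in hindgut and 71.4 in urethra. At E10.5, 4 of the 7 kept markers had the higher value in ventral cloaca and 3 in dorsal cloaca, with 2 and 1 past the rule and a median of 0.11. Past it toward ventral cloaca were Twist1, at 1.98 and 9.19 FPKM, and Osr1, at 42.3 and 105 FPKM, and toward dorsal cloaca Col3a1, at 13.2 and 3.36 FPKM. At E13.5, 7 of 10 had the lower value in urethra and 3 the higher, with a median of -0.56. Past the rule toward urethra were Prrx1, at 2.08 and 8.29 FPKM, and Osr1, at 6.75 and 26.1 FPKM. Past it toward hindgut at E13.5 were Col1a2, at 11.0 and 4.53 FPKM, Col3a1, at 14.4 and 6.23 FPKM, and Lum, at 8.19 and 0.94 FPKM. Blood markers summed to 890 and 1180.2 FPKM at E10.5 and to 35.3 and 79.0 FPKM at E13.5, with 5, 5, 3 and 4 of 10 features at 1 FPKM or more. The part of these cells in the EphA and ephrin-A values was not tested.

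The reads behind 2 of the genes are less certain. The deposited span of Efna2 runs from 79697305 to 80369637 of chromosome 10 and is shared with 46 other features, while GENCODE M21 places the gene at 80179482 to 80190010. Without Efna2 the ligand totals were 114, 201, 69.3 and 84.7 FPKM, and the ratio of ventral to dorsal was 1.76 at E10.5 and 1.22 at E13.5. The span of Epha1 (chromosome 6, 42358487 to 42380558) is shared with 1 other feature, and exons of Epha1 share 236 bases with those of Zyx, a gene on the opposite strand that stood at 15.0, 28.6, 38.1 and 38.2 FPKM in the 4 groups. Next to Efna2 lies 1600002K03Rik, in the same shared span, at 7.64 and 18.0 FPKM at E10.5 and at 9.88 and 11.4 FPKM at E13.5. The gene after Epha2, Fam131c, stood at 0.018 and 6.06 FPKM at E10.5 (2.79) and at 1.20 and 0.25 FPKM at E13.5 (-0.81), while the gene before it, Arhgef19, stood at 9.38 and 10.2 FPKM and at 23.3 and 29.8 FPKM. The features next to Epha4 and Epha7 had at most 0.050 FPKM in all 4 groups. The other 8 genes share their span with no other feature. On mm10, Epha4 (XLOC_000860) spans 77367185 to 77515088 of chromosome 1, Epha7 (XLOC_013704) 28813145 to 28967499 of chromosome 4, Epha2 (XLOC_014209) 141301221 to 141329384 of the same chromosome, and Epha5 (XLOC_015949) 84054765 to 84417382 of chromosome 5. Efna5 (XLOC_009214) spans 62602957 to 62881317 of chromosome 17. All 10 are protein-coding genes in GENCODE M21.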

How the data were processed

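RNA of 16 laser-captured mouse samples was measured, 4 in each of 4 groups. The authors deposited FPKM values, 1 column per region, in 2 tables, per the file headers; the table's name gives the age. The submitters' processing notes name Cufflinks 2.2.1 and the build mm10. No source used here states the aligner, the gene annotation, whether strand was used, or the way 4 libraries became 1 value. Depth is unknown. Low values of genes with a single transcript, multiplied by its length, were set against whole multiples of the best common step. At most 25.1% of values lay within 0.1 of one, where 20% would by chance at a step fixed beforehand. The best step was picked from many, so its chance level is above 20%, and no depth can be read from it. A value of 0 can be a failed estimate.

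From these values were computed, with Python 3.11.15, numpy 2.4.6 and pandas 2.3.3, differences of log2(FPKM + 1), counts at a size of at least 1 among features with at least 1 FPKM in either region, sums and shares. The functions were checked on data with planted differences. No test was possible with 1 value per region. Levels of the 2 ages come from tables normalized separately. Deposited starts equalled RefSeq starts after adding 1 for 10514 of 21226 genes, so positions are counted from 1. The members and the 18 gene and marker lists (149 entries, all matched) were chosen with earlier results of these data known. Beyond the members, named genes are list members past the size rule (up to 4 per list), markers, and the features next to a member on the genome. Adam10, Epha8, Epha10 and the members of marker lists singled out were named after their values were seen. Alternatives were pseudocounts of 0.1 and 5, no minimum, a minimum of 5 FPKM, upper-quartile scaling and quantile normalization.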

Additional observations from a re-analysis of the deposited data

How the results depend on the processing

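Of 111 recomputed differences of the 10 genes, 106 kept their direction and their side of the size rule, and the 5 others kept their direction. At E10.5 a pseudocount of 5 left 1 gene higher ventrally (2 with a pseudocount of 1) and 0 dorsally (1). Of the 12379 kept features it left 401 and 325 (1308 and 1191 with a pseudocount of 1). A minimum of 5 FPKM left 0 of the 10 genes higher dorsally, since Epha2 was then not kept. Under this minimum 9175 features were kept at E10.5, of which 823 were higher ventrally and 691 dorsally. These counts thus come from a smaller set of features. At E13.5 a pseudocount of 5 left 1 gene higher in urethra (3 with a pseudocount of 1). Of the 12369 kept features it left 173 higher in urethra and 227 in hindgut (515 and 568 with a pseudocount of 1). A pseudocount of 0.1 gave 864 of the 12369 features higher in urethra, and a minimum of 5 FPKM 298 of 9035. A larger pseudocount shrinks the differences of low genes by its construction. The log2 ratio of the ligand totals at E10.5 was 0.26 without Efna4 and that of the receptor totals -0.82 without Epha7. The median of the EphB receptors at E13.5 turned to -0.16 with no minimum and to -0.33 with a minimum of 5 FPKM. Upper-quartile scaling and quantile normalization changed the call of none of the 10 genes. No paired analysis was possible because the tables hold 1 value per region, although the labels tie both regions to the same embryo; for the same reason no replicate could be left out.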
